A study of Homo sapiens with 12 samples.

Results

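A set of 8 genes of antioxidant defence and iron storage was followed through a bulk RNA-sequencing experiment. They are FTH1 and FTL, which encode the heavy and light subunits of ferritin, and 6 target genes of the transcription factor NRF2: HMOX1, NQO1, GCLM, GCLC, TXNRD1 and SRXN1. They were picked by name, as the rows of the deposited gene table that carry these symbols, and make up 8 of its 26475 rows. All 8 were expressed above the filter on low counts, in a set of 15443 tested genes. The cells were A375, a human melanoma line with a mutant BRAF kinase. The DMSO group received the solvent alone. The XL413 group received 1 µM of an inhibitor of the replication kinase CDC7, and the GSK343 group 1 µM of an inhibitor of the histone methyltransferase EZH2. The GSK343+XL413 group received both compounds at 1 µM each. All 4 groups were harvested at 24 h and hold 3 libraries each, described in the labels as biological replicates. The results are those of 1 cell line at 1 dose and 1 time.

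NRF2, encoded by NFE2L2, is held at a low level by KEAP1, which presents it for degradation. Oxidants and electrophiles disable KEAP1, and NRF2 then pairs with small MAF proteins at antioxidant response elements, a site that the repressor BACH1 can also occupy. The targets described here make glutathione (GCLC, GCLM), reduce thioredoxin (TXNRD1) and peroxiredoxins (SRXN1), reduce quinones (NQO1) and break down haem (HMOX1). Ferritin stores the iron that haem breakdown and uptake deliver. Its genes respond to NRF2, and its mRNAs are also held back from translation by iron regulatory proteins, which bind a hairpin called the iron-responsive element when iron is scarce.

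The iron-responsive hairpin is the sequence that both ferritin mRNAs share. Its loop, CAGTGN, is in capitals below, with 12 bases on each side, read 5′ to 3′ from GENCODE 29 transcripts on GRCh38. Both lie in the 5′ untranslated region, at chr11:61967573-61967602 on the minus strand for the FTH1 transcript (bases 59 to 88) and at chr19:48965335-48965364 on the plus strand for the FTL transcript (bases 35 to 64).
FTH1: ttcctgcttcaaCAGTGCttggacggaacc
FTL: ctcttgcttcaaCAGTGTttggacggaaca
The 2 stretches are equal at 26 of 30 bases. RNA-seq counts mRNA and holds no measure of the translation that this element controls.

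The RefSeq promoter table (GRCh38.p14) matched 6 of the 8 genes, FTL, NQO1, GCLM, GCLC, TXNRD1 and SRXN1. FTH1 and HMOX1 were not matched. The 250 bases before each start were searched on both strands for the core of the antioxidant response element, TGACNNNGC, which 3013 of 27305 promoters hold (11.03%). It was found once in GCLM, 34 to 26 bases before the start, and once in TXNRD1, 99 to 91 bases before it. Each match is in capitals at the end of 30 bases on the gene's strand, at chr1:93909456-93909485 (minus) and chr12:104215659-104215688 (plus). In GCLM the core reads on the opposite strand.
GCLM: actttctcggctacgatttctGCTTAGTCA
TXNRD1: ttgaagaagatacacgggctaTGACTTCGC
The 4 other windows hold no such letters. A site for AP-1, TGANTCA, is in 6.596% of promoters and in 0 of these 6. Only these windows, at a single start per gene, were searched, so sites farther out or at other starts were not looked for. The GCLC window (chr6:53545102-53545351) lies inside the span of that gene. A match is a run of letters, not shown binding.

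Libraries held 31553205 to 39079931 expected counts. FTH1, the best covered member, had 42404 to 89803 counts per library. HMOX1, the least covered, lay between 14.2 and 21.3 CPM (counts scaled to the effective size of the library). Melanoma-line markers summed to 3473 to 3877 CPM over the 12 libraries. Most of this sum was VIM (2865 CPM in DMSO). SOX10 was at 347 CPM and AXL at 478 CPM in DMSO. The pigment-cell genes TYR (0 in all libraries), MLANA and PMEL (means of 0.0906 and 0.530 CPM in DMSO) were at or near 0. Lists for other cell types were not at 0: their sums ran from 566 to 656 CPM for epithelial genes, mostly KRT18 (590.0 CPM in DMSO), and from 152 to 278 CPM for fibroblast genes (COL1A1 at 93.3 CPM). Leukocyte genes summed to 47.6 to 56.7 CPM, mostly CD68 (43.5 CPM in DMSO). Their defining genes EPCAM, CDH1 and PTPRC had means of at most 0.161, 0.0832 and 0.0467 CPM in any group. Their part in the results was not tested. GSK343+XL413 replicate 2 stood apart. Over 10085 genes its log2 level deviated from its group's other libraries with an SD of 0.245, where the other 11 libraries had 0.0743 to 0.152. Longer transcripts deviated downward in it (Spearman's rho −0.702 over genes, which are not replicates; −0.522 to 0.637 elsewhere). Values of the 8 genes in the combination against DMSO are given with and without it, and those of the related lists as counts of calls. Without it, more genes were called in every comparison against DMSO: 4.85% with XL413, 6.15% with GSK343 and 15% with both.

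Levels of different genes were compared per length, as mean CPM per kilobase of the longest transcript in DMSO. Ferritin mRNAs were the most abundant, FTH1 at 1219 and FTL at 1008. NQO1 followed at 193 and TXNRD1 at 134, then SRXN1 at 33.0, GCLM at 14.6, GCLC at 10.6 and HMOX1 at 9.19. Together the 8 genes took 0.353 to 0.484% of all counts in a library. HMOX1, which releases the iron that ferritin stores, thus stood at the low end of this order and ferritin at the high end.

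Both ferritin subunits rose when GSK343 and XL413 were given together, FTH1 by 1.39-fold and FTL by 1.2-fold over DMSO. No other member passed the test against DMSO in that group, and 0 of 8 passed it with either compound alone. Thus 2 of 8 members were called in the combination against DMSO, both higher, where 13.9% of all tested genes were called (6.69% higher, 7.25% lower). With so large a share of all genes called, the 2 calls are described gene by gene and not as a change of the group. The median log2 fold change of the members was 0.098, and that of all tested genes 0.0060. In bulk RNA, more transcript per cell and more cells with the transcript cannot be told apart. Calls are edgeR's quasi-likelihood test with Benjamini-Hochberg adjustment over the 15443 genes, at an adjusted p under 0.05.

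**Figure D1:**
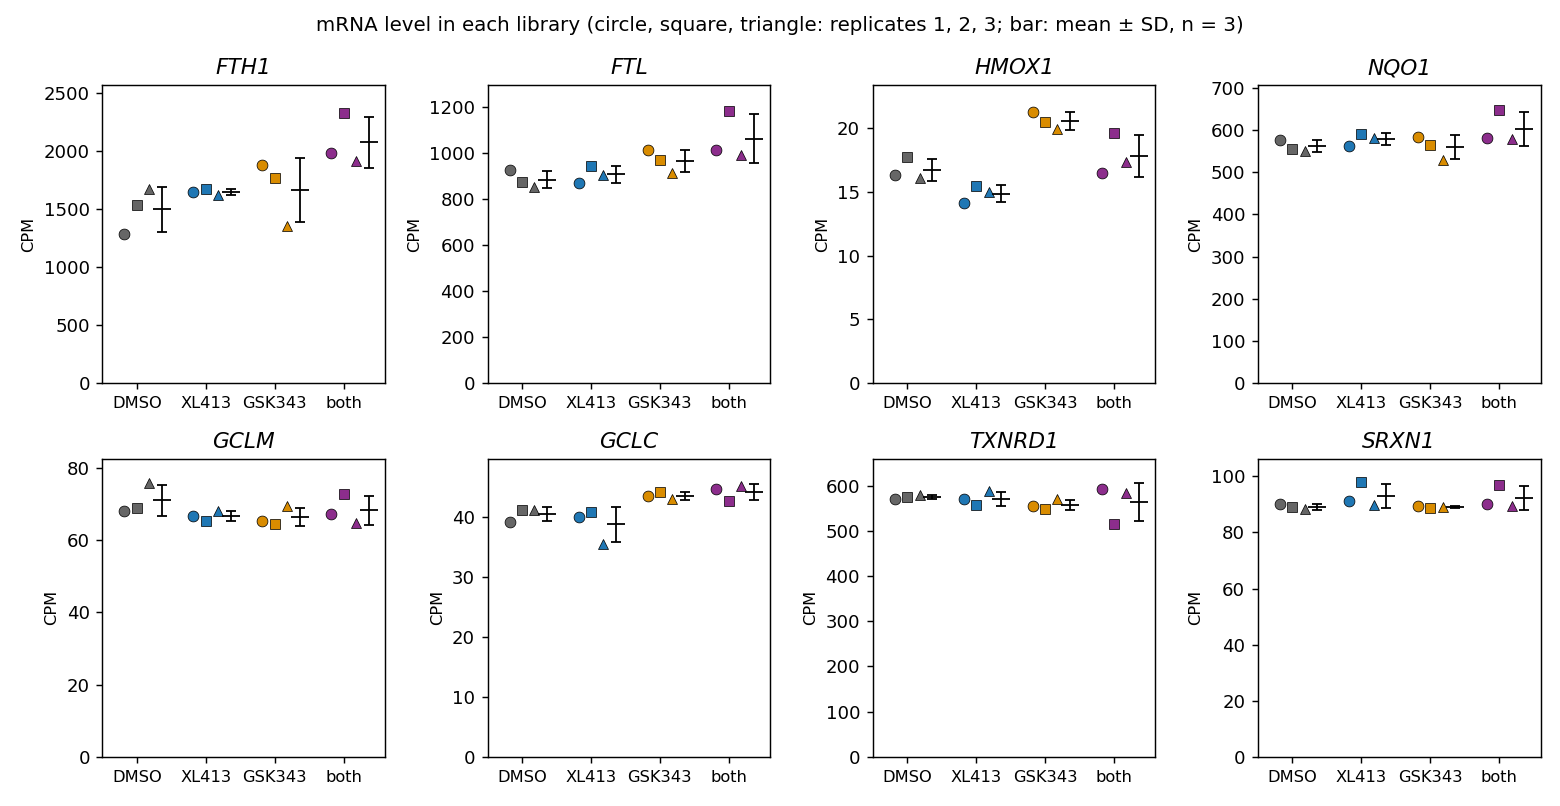
Level of each of the 8 mRNAs in the 12 libraries. The vertical axis is CPM from 0, the horizontal axis the 4 groups ("both" is GSK343+XL413), symbols mark the replicate number, and bars are mean ± SD (n = 3). FTH1 is highest in the 3 libraries given both compounds, and HMOX1 is highest in the 3 given GSK343 alone. FTL with both compounds is above every DMSO and XL413 library, but its lowest value there lies below a GSK343 library.

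FTH1 (chromosome 11, 61959718 to 61967660, minus strand, GRCh38) encodes the subunit with ferroxidase activity, which oxidises iron for storage. Its level was 1284, 1534 and 1675 CPM in DMSO replicates 1 to 3. With XL413 it was 1647, 1671 and 1626 CPM, and with GSK343 it was 1882, 1767 and 1356 CPM. With both compounds it was 1985, 2329 and 1918 CPM. The 3 libraries of the combination were above all 9 others, while XL413 and GSK343 each overlapped DMSO. The group means were 1498 ± 198, 1648 ± 22.6, 1668 ± 276 and 2077 ± 221 CPM (SD, n = 3) in the order DMSO, XL413, GSK343 and both. In that order only the last 2 neighbours did not overlap, and their difference missed the threshold (edgeR adjusted p = 0.159).

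The combination raised FTH1 by 0.47 ± 0.114 on the log2 scale (SE; 95% interval 0.225 to 0.718; edgeR adjusted p = 0.0172). Leaving out GSK343+XL413 replicate 2, the rise was 0.39 ± 0.107 (adjusted p = 0.0255). It missed the threshold when DMSO replicate 1 (0.37, adjusted p = 0.0716) or DMSO replicate 2 (0.48, adjusted p = 0.0581) was left out. XL413 alone gave 0.14 ± 0.114 (adjusted p = 0.637) and GSK343 alone 0.16 ± 0.114 (adjusted p = 0.599). When single libraries were left out, these ranged from 0.038 to 0.234 (XL413) and from 0.055 to 0.289 (GSK343). FTH1 was also one of the more variable genes within groups. The SD of its log2 CPM inside a group was 0.176, larger than that of 95.4% of genes at a mean of 3 log2 CPM or more, whose median was 0.0775.

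FTL (chromosome 19, 48965301 to 48966878, plus strand) encodes the light subunit, which helps iron form its mineral core. DMSO replicates 1 to 3 were at 927, 874 and 854 CPM. The XL413 libraries were at 870, 946 and 907 CPM, and the GSK343 libraries at 1012, 971 and 914 CPM. Those given both compounds were at 1014, 1183 and 989.7 CPM, all above every DMSO and XL413 library. The lowest of them lay below 1 GSK343 library. The means ordered as DMSO (885 ± 37.7 CPM), XL413 (907 ± 38.1), GSK343 (966 ± 48.9) and both (1062 ± 106; SD, n = 3). No 2 neighbours of this order were separated beyond their spread.

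Against DMSO, FTL rose in the combination by 0.26 ± 0.063 on the log2 scale (95% interval 0.126 to 0.400; edgeR adjusted p = 0.0171). GSK343+XL413 replicate 2 was its highest library, and without it the rise was 0.18 ± 0.045 (adjusted p = 0.0133). It missed the threshold when DMSO replicate 2 (0.25, adjusted p = 0.0704) or DMSO replicate 3 (0.23, adjusted p = 0.0745) was left out, and in a fit of only these 2 groups (adjusted p = 0.0795). XL413 alone gave 0.036 ± 0.063 (adjusted p = 0.843) and GSK343 alone 0.13 ± 0.063 (adjusted p = 0.397).

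Ferritin transcripts are short, 1.229 kb for FTH1 and 0.878 kb for FTL, and in the combination short transcripts were higher as a class. Among genes at a mean of 3 log2 CPM or more, 1054 with a longest transcript under 1.5 kb had a median log2 fold change of 0.13 against DMSO, and 20.4% were called higher. The 5903 genes over 3 kb had a median of −0.067, with 4.15% called higher. With that library left out, GSK343+XL413 replicate 2, the short class had a median of 0.054, with 14.3% called higher. When each library was corrected for its trend with GC content and length, FTH1 remained called at 0.34 (adjusted p = 0.0198) and FTL at 0.15 (adjusted p = 0.00145). The FTL estimate moved by more than 1.5 times. Of the genes under 1.5 kb, the correction called 13.4% higher and 13.4% lower in the combination, and 2.09% higher and 2.66% lower with GSK343. For GSK343 the shares without it were 0.474 and 0%. The correction also called FTL with GSK343 alone against DMSO (0.11, edgeR adjusted p = 0.0264). It called FTL in the combination against XL413 too (0.16, adjusted p = 0.00288). With the replicate number also in the model, only the latter of these 2 calls was kept (adjusted p = 0.00949). How far transcript length has a part in the ferritin values was not tested beyond this correction.

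**Figure D2:**
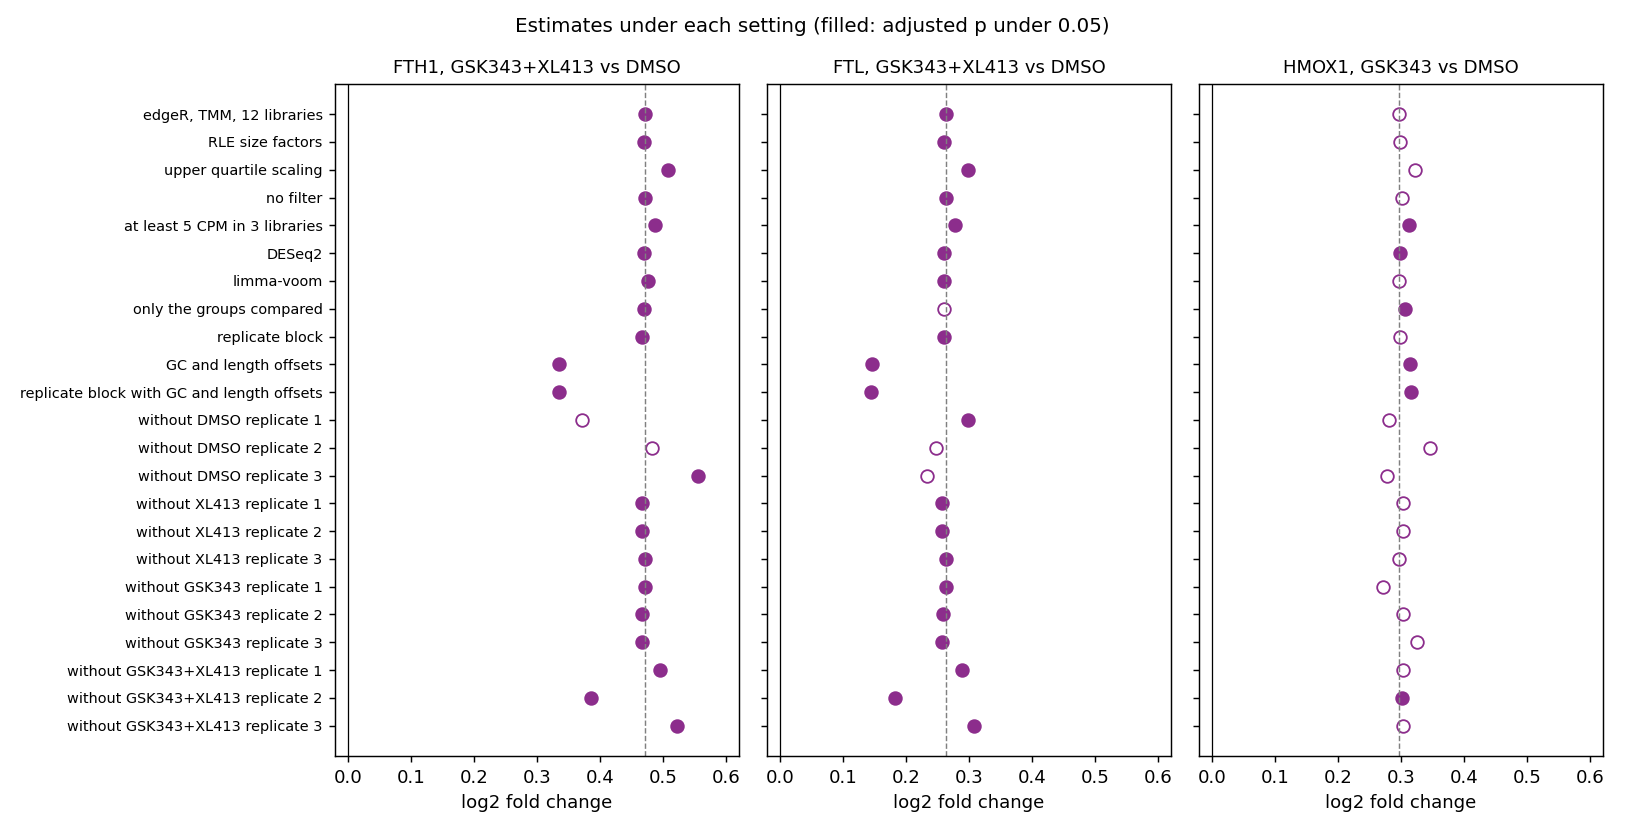
Log2 fold change (horizontal axis) of FTH1 and FTL in GSK343+XL413 against DMSO and of HMOX1 in GSK343 against DMSO, under each setting (vertical axis). Filled points passed an adjusted p of 0.05 and the dashed line marks the value reported. FTH1 lay between 0.33 and 0.56 and FTL between 0.15 and 0.31, and all estimates were above 0.

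The share of the 2 subunits was compared as FTH1 over FTL, each per length. It was 0.990, 1.25 and 1.40 in DMSO, 1.35, 1.26 and 1.28 with XL413, 1.33, 1.30 and 1.06 with GSK343, and 1.40, 1.41 and 1.38 with both compounds. The ratios of the combination lay within the range of the DMSO libraries up to 1.40, except in replicate 2. DMSO itself ranged most widely, from 0.990 to 1.40, so a change of subunit balance was not detectable here. As a share of all counts, FTH1 took 0.127 to 0.230% of a library and FTL 0.0850 to 0.117%. Reads of ferritin pseudogenes can match FTH1, and RSEM divides such reads by estimate.

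**Figure D3:**
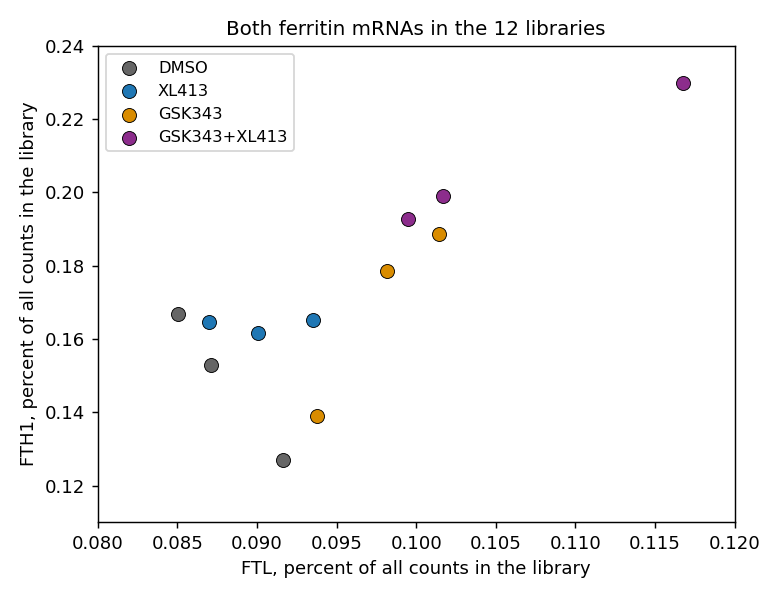
Share of all counts taken by FTL (horizontal axis, percent) and FTH1 (vertical axis, percent) in each of the 12 libraries, coloured by group; neither axis starts at 0. GSK343+XL413 replicate 2 is the point at 0.117% and 0.230%, and DMSO replicate 1 the lowest for FTH1, at 0.127%.

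HMOX1 (chromosome 22, 35380361 to 35394214, plus strand) encodes haem oxygenase, which breaks haem into iron, biliverdin and carbon monoxide. It was at 16.4, 17.8 and 16.1 CPM in DMSO. XL413 libraries were lower, at 14.2, 15.5 and 15.02 CPM, and GSK343 libraries higher, at 21.3, 20.5 and 19.9 CPM. The combination lay between, at 16.5, 19.6 and 17.4 CPM, and overlapped DMSO alone. From low to high the means were 14.9 ± 0.651 (XL413), 16.7 ± 0.886 (DMSO), 17.8 ± 1.62 (both) and 20.6 ± 0.694 CPM (GSK343; SD, n = 3).

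None of the HMOX1 differences passed edgeR's test with the settings used throughout. GSK343 against DMSO gave 0.30 ± 0.070 on the log2 scale (95% interval 0.146 to 0.449; edgeR adjusted p = 0.0634), and XL413 against DMSO −0.17 ± 0.072 (adjusted p = 0.318). Both compounds gave 0.092 ± 0.071 against DMSO (adjusted p = 0.409), or 0.021 ± 0.066 with GSK343+XL413 replicate 2 left out. The combination was at 0.26 ± 0.071 against XL413 (adjusted p = 0.127; 0.18 without that library) and at −0.21 ± 0.070 against GSK343 (adjusted p = 0.143). Leaving out GSK343+XL413 replicate 2 brought GSK343 against DMSO to an adjusted p of 0.00690 at 0.30. It also brought the combination against GSK343 to −0.28 (adjusted p = 0.0420). The rise with GSK343 also passed with DESeq2 (adjusted p = 0.0235), with a stricter filter (0.0412), in a fit of only these 2 groups (0.0225) and with the GC and length correction (0.0080). In the length class of HMOX1 (1.5 to 3 kb), the correction called 2.67% of genes higher and 4.41% lower with GSK343. Without it these shares were 1.25 and 1.15%. DESeq2 called 2.21% of all genes there, and the shares for the stricter filter and the fit of 2 groups are not given here. The GC and length correction also brought HMOX1 in the combination past the threshold against XL413 (0.24, adjusted p = 0.0438) and against GSK343 (−0.26, adjusted p = 0.0226). By contrast, leaving out any other single library gave GSK343 against DMSO an adjusted p from 0.0539 to 0.224.

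NQO1 (chromosome 16, 69706996 to 69726951, minus strand) encodes the quinone reductase often read as a marker of NRF2 activity. Its level was 577, 555 and 550.5 CPM in DMSO, 562, 589.8 and 581 CPM with XL413, and 585, 565 and 530.0 CPM with GSK343. With both compounds it was 581, 649 and 578 CPM. The 3 combination libraries exceeded every DMSO library by a small margin, and the single compounds overlapped DMSO. The combination gave 0.10 ± 0.049 (95% interval −0.0033 to 0.210; edgeR adjusted p = 0.177), and 0.052 ± 0.038 without its replicate 2. GSK343 alone gave −0.0030 ± 0.049, with an interval of −0.110 to 0.104.

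Glutathione synthesis starts with glutamate-cysteine ligase. GCLC (chromosome 6, 53497341 to 53616970, minus strand) encodes its catalytic subunit and GCLM (chromosome 1, 93885205 to 93909456, minus strand) its modifier subunit. GCLC was at 39.2, 41.2 and 41.3 CPM in DMSO and at 40.0, 40.9 and 35.5 CPM with XL413. It was at 43.5, 44.2 and 42.9 CPM with GSK343 and at 44.7, 42.7 and 45.2 CPM with both. The 6 libraries that received GSK343 were thus above the 6 that did not. The log2 fold changes were 0.10 ± 0.054 for GSK343 (edgeR adjusted p = 0.425) and 0.12 ± 0.054 for both against DMSO (adjusted p = 0.140; 0.15 without replicate 2 of the combination). Against XL413 the combination gave 0.19 ± 0.054 (adjusted p = 0.142; 0.21 without that library).

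GCLM did not share this order. It was at 68.14, 68.9 and 75.8 CPM in DMSO and at 66.5, 65.1 and 68.05 CPM with XL413. With GSK343 it was at 65.3, 64.5 and 69.3 CPM, and with both at 67.2, 72.7 and 64.7 CPM. The XL413 libraries lay just under all DMSO libraries, and the other groups overlapped DMSO. The estimates were −0.092 ± 0.055 (XL413), −0.097 ± 0.055 (GSK343) and −0.057 ± 0.055 (both), with edgeR adjusted p values of 0.492, 0.465 and 0.522. With replicate 2 of the combination left out, the last was −0.10 ± 0.050 (adjusted p = 0.196).

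TXNRD1 (chromosome 12, 104215779 to 104350305, plus strand) encodes the cytosolic thioredoxin reductase. It was at 569.8, 575 and 579.5 CPM in DMSO, 569.6, 556 and 587 CPM with XL413, and 555, 548 and 569.7 CPM with GSK343. With both compounds it was at 591, 514 and 584 CPM, where replicate 2 is the low value. GSK343 libraries were all below DMSO, the nearest by less than 1 CPM. The combination gave −0.029 ± 0.048 (95% interval −0.132 to 0.074; edgeR adjusted p = 0.724), and 0.037 ± 0.030 without replicate 2.

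SRXN1 (chromosome 20, 646615 to 653370, minus strand) encodes sulfiredoxin, which restores over-oxidised peroxiredoxins. Its DMSO libraries were at 90.1, 89.0 and 88.2 CPM and its GSK343 libraries at 89.4, 88.7 and 89.0 CPM. XL413 libraries were at 91.3, 97.9 and 89.7 CPM and those with both compounds at 90.2, 97.1 and 89.3 CPM. The DMSO and GSK343 groups were nearly on one level, and the others had 1 higher library each. Estimates against DMSO were 0.061 ± 0.045, −0.0012 ± 0.045 and 0.050 ± 0.045 for XL413, GSK343 and both (edgeR adjusted p = 0.587, 0.995 and 0.488). The interval for both compounds was −0.047 to 0.146, and without replicate 2 the estimate was 0.015 ± 0.039.

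**Figure D4:**
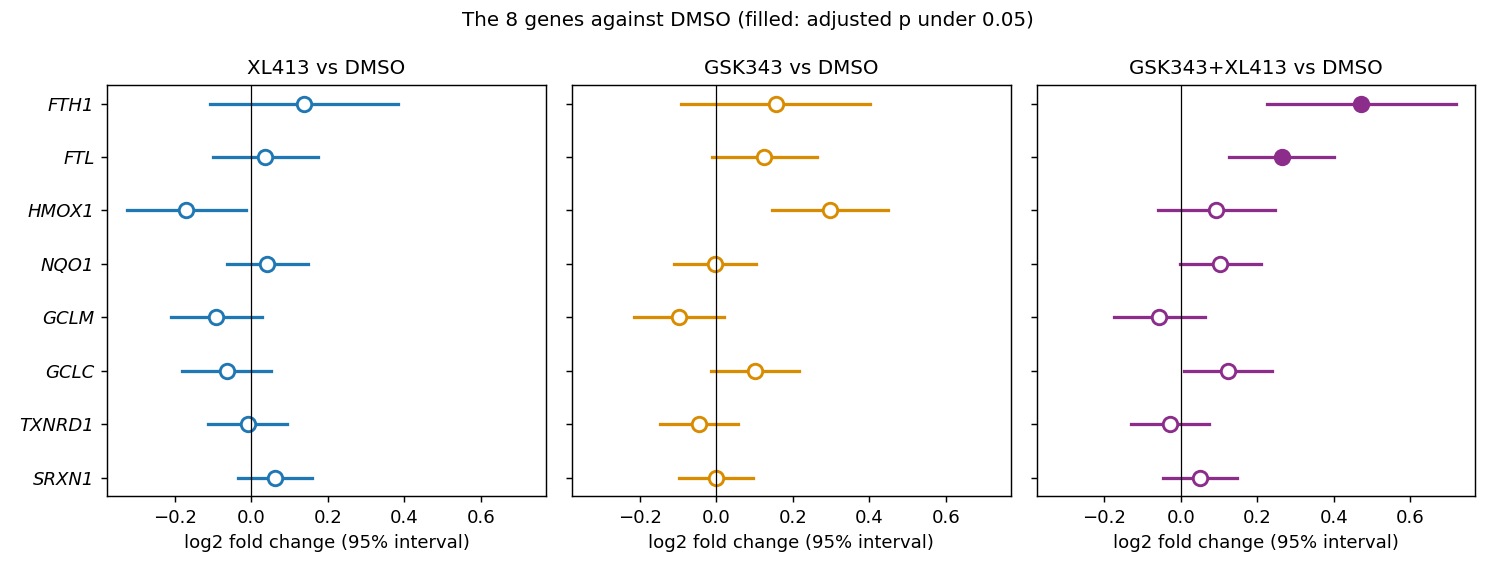
Log2 fold change against DMSO with its 95% interval (horizontal axis) for each gene (vertical axis), by treatment. Filled points passed an adjusted p of 0.05: only FTH1 and FTL in GSK343+XL413, at 0.47 and 0.26.

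Counted over the comparisons, XL413 against DMSO called 0 of 8 members where 0.427% of all genes were called (0.278% higher, 0.149% lower). GSK343 against DMSO called 0 of 8 where 1.17% were (0.725% higher, 0.44% lower). At an unadjusted p under 0.05 each had 1 member, HMOX1 in both, where 13.7 and 14.3% of all genes lay under it, and the combination had 3 where 30.4% did. DESeq2 called 0 members for XL413 (1.61% of all genes) and 1 for GSK343 (2.21%), and limma-voom 0 for both (0.389 and 1.11%). In the combination against DMSO each tool called 2 members, with 15.3 and 14.2% of all genes. The 3 comparisons against DMSO share its libraries, so their values are not independent of one another. Groups that did not overlap were 2 members for XL413, both lower (HMOX1, GCLM; 28.1% of all genes in either direction, 11.9% higher and 16.2% lower), and 3 for GSK343 (HMOX1 and GCLC higher, TXNRD1 lower; 25.2% of all genes, 11.2% higher and 14% lower). In the combination they were 4, all higher (FTH1, FTL, NQO1 and GCLC; 33.7% of all genes, 16.3% higher and 17.4% lower).

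Adding GSK343 to XL413 called 0 of 8 members, with 0.784% of all genes called (0.557% higher, 0.227% lower). In it 4 members had an unadjusted p under 0.05, as did 15% of all genes (FTH1, FTL, HMOX1 and GCLC), all higher and all without overlap, where 19.9% of all genes did not overlap, 10% higher and 9.84% lower. FTH1 gave 0.33 ± 0.114 (edgeR adjusted p = 0.210) and FTL 0.23 ± 0.063 (adjusted p = 0.135), or 0.24 and 0.14 when replicate 2 of the combination was left out. Adding XL413 to GSK343 also called 0 of 8, with 0.984% of all genes called (0.648% higher, 0.337% lower) and 3 members at an unadjusted p under 0.05, as were 20.4% of all genes. There FTH1 gave 0.32 ± 0.114 (edgeR adjusted p = 0.159) and FTL 0.14 ± 0.063 (adjusted p = 0.241), or 0.23 and 0.053 when that library was left out. In this comparison 2 members did not overlap, FTH1 higher and HMOX1 lower (21.3% of all genes, 10.5% higher and 10.8% lower). DESeq2 called 0 members in both (1.89 and 3.74% of all genes), and so did limma-voom (0.809 and 1.06%).

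Whether the GSK343 effect differed with and without XL413 was asked by the interaction. It called 0 of 8 members and 0 of all genes (0%) with edgeR, 2 genes with DESeq2 and 0 with limma-voom, and 413 genes (2.67%) had an unadjusted p under 0.05, none of them a member. FTH1 gave 0.18 ± 0.161 (95% interval −0.169 to 0.526) and FTL 0.10 ± 0.090 (−0.092 to 0.295), or 0.081 and 0.0091 with replicate 2 of the combination left out. HMOX1 gave −0.035 ± 0.10 (−0.251 to 0.181), or −0.12 with that library left out. All of these intervals include 0, and that of FTH1 is wider than its effect in either single treatment.

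The genes around the pathway were taken from 6 lists. Their counts are read against the shares of all genes called, 0.427% with XL413, 1.17% with GSK343 and 13.9% with both. Of 16 regulators of NRF2, 0 were called with XL413, 1 higher with GSK343, and 1 higher and 1 lower with both (list medians −0.040, −0.0044 and −0.040). SQSTM1, the autophagy receptor p62 that binds KEAP1 and is itself an NRF2 target, was the riser. It was at 595 ± 6.12 CPM in DMSO and 584.7 ± 10.1 with XL413, but 801 ± 49.8 with GSK343 and 842 ± 50.2 with both (SD, n = 3). All 6 libraries that received GSK343 exceeded the 6 that did not, and its log2 fold changes were 0.43 ± 0.049 and 0.50 ± 0.049 (edgeR adjusted p = 0.000781 and 0.000141). Both calls held in all 22 other fits. PGAM5, a mitochondrial phosphatase that binds KEAP1, fell by 0.29 ± 0.046 with both compounds (adjusted p = 0.00234). Leaving out replicate 2 of the combination, SQSTM1 rose by 0.45 and PGAM5 fell by 0.33 with both, and the list had 4 calls, KEAP1 and MAFF added, where 15% of all genes were called.

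The NRF2 gene itself did not pass the test. NFE2L2 was at 65.9 ± 2.61, 66.5 ± 1.25, 64.3 ± 1.44 and 65.4 ± 2.56 CPM in DMSO, XL413, GSK343 and both (edgeR adjusted p from 0.781 to 0.926). KEAP1 was at 125 ± 2.83 CPM in DMSO and 116 ± 5.02 with both, a log2 difference of −0.11 ± 0.043 (adjusted p = 0.0974). When GSK343+XL413 replicate 2 was left out that difference passed, at −0.14 (adjusted p = 0.0229). BACH1 was at 25.1 CPM in DMSO and 23.9, 27.6 and 24.4 CPM in the treated groups, and MAFG at 72.6, then 70.5, 72.4 and 71.7 CPM, and none was called. NRF2 is controlled largely as a protein, and protein was not measured.

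Of the 6 lists, glutathione genes had the largest share of calls with both compounds. Of 27 tested, 12 were higher and 3 lower (55.6% called, against 13.9% of all genes), with a median of 0.15, and 0 were called with either compound alone. GLRX, a glutaredoxin, rose from 18.2 ± 0.401 to 25.1 ± 2.50 CPM, by 0.46 ± 0.077 (edgeR adjusted p = 0.00286), and GSTM3, a glutathione transferase, by 0.35 ± 0.064 (adjusted p = 0.00464). Both subunits of the cystine importer fell: SLC7A11, itself a known NRF2 target, by 0.39 ± 0.071 (adjusted p = 0.00421) and SLC3A2 by 0.24 ± 0.045 (adjusted p = 0.00527). These 4 calls held in all 22 other fits. Some others of the 15 were less stable. When single libraries were left out, GPX8 kept its call in 0 of 12 fits, CHAC1 in 2, GSTP1 in 5 and GSTM4 in 6. With the GC and length correction GPX8, GSTM1 and GSTO1 were not called. In the fit of only these groups CHAC1, GPX8, GSTM4, GSTO1, GSTP1 and GSTK1 were not called. Of transcripts under 1.5 kb, 20.4% were called higher in the combination, and the part of length in this list was not tested. With GSK343+XL413 replicate 2 left out, the combination called 9 higher and 4 lower, 12 of them shared with the 15, and GLRX rose by 0.39 and SLC7A11 fell by 0.33. That fit also called 3 genes with XL413 (GLRX, SLC7A11, SLC3A2) and 4 with GSK343 (GLRX, MGST1, SLC3A2, CHAC1), where 4.85 and 6.15% of all genes were called. Transferases of the GSTM family are close paralogs, so their reads are divided by estimate.

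**Figure D5:**
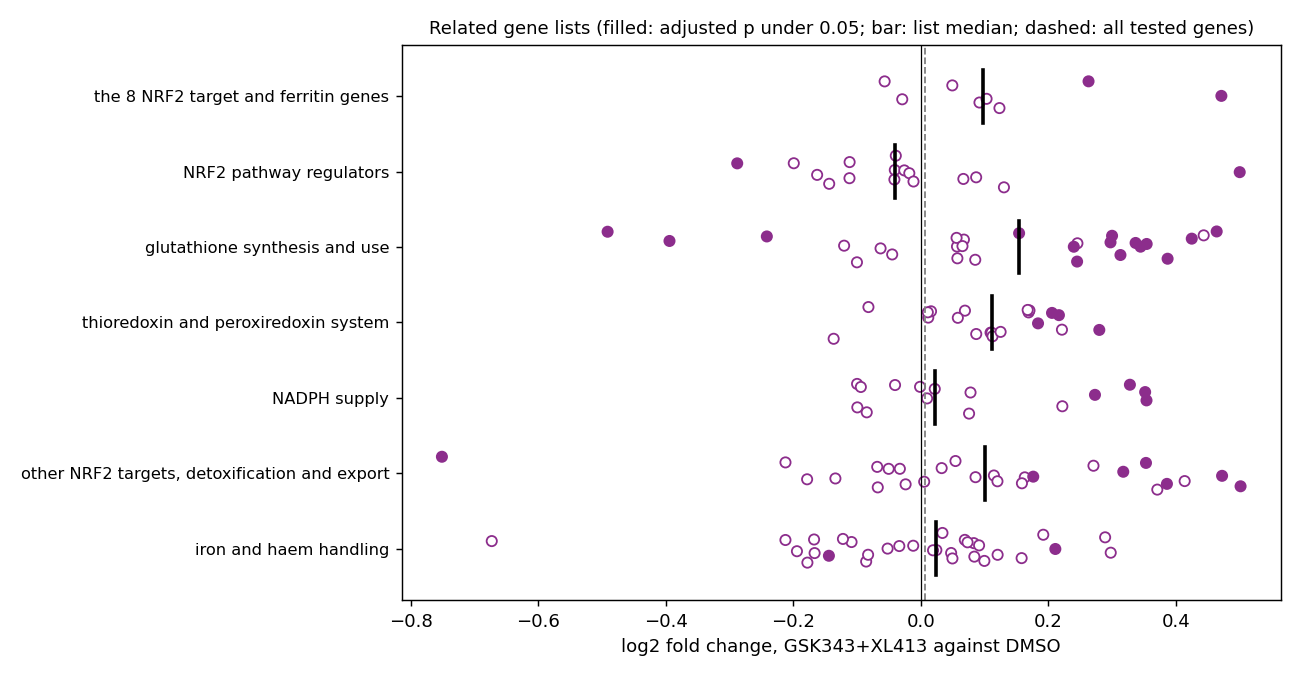
Log2 fold change in GSK343+XL413 against DMSO (horizontal axis) of each tested gene of the 8 and of 6 related lists (vertical axis, points spread for visibility). Filled points passed an adjusted p of 0.05, bars are medians and the dashed line is the median of all tested genes, 0.0060. The glutathione list has filled points on both sides of 0, 12 higher and 3 lower.

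The thioredoxin and peroxiredoxin list, which holds the partners of TXNRD1 and SRXN1, had 4 of 20 genes called higher with both compounds (6.69% of all genes were) and 0 with either alone (median 0.11 with both). CAT, catalase, rose by 0.21 ± 0.040 (edgeR adjusted p = 0.00658). In the fit of only these groups all 4 calls of the list missed the threshold, CAT with an adjusted p of 0.0508. SESN1, a sestrin, rose by 0.28 ± 0.066, and missed the threshold (up to 0.0703) when DMSO replicate 1, DMSO replicate 2 or GSK343+XL413 replicate 1 was left out. PRDX6, a peroxiredoxin, rose by 0.18 ± 0.052 and SOD1, a superoxide dismutase, by 0.22 ± 0.064. PRDX6 missed it (up to 0.136) when DMSO replicate 2, DMSO replicate 3 or GSK343 replicate 2 was left out. SOD1 did so for 8 of the 12 libraries (up to 0.142), namely all of DMSO, all of XL413, GSK343 replicate 2 and GSK343+XL413 replicate 2. In the fit that left out replicate 2 of the combination, 3 of the 4 calls were kept, all but SOD1. With the GC and length correction PRDX6 and SOD1 were both lost with estimates of 0.065 and 0.041 at the lowest.

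NADPH is consumed by both reductase systems. Of 15 tested genes listed for its supply and related steps, 1, 1 and 4 were called higher with XL413, GSK343 and both, where 0.278, 0.725 and 6.69% of all genes were (medians 0.017, −0.048 and 0.022). IDH1, the cytosolic isocitrate dehydrogenase, went from 63.2 ± 0.468 CPM in DMSO and 64.2 ± 0.369 with XL413 to 77.03 ± 1.97 with GSK343 and 79.3 ± 2.62 with both. It rose by 0.29 ± 0.039 and 0.33 ± 0.039 (edgeR adjusted p = 0.00332 and 0.000465). IDH2, its mitochondrial counterpart, was at 19.2 ± 0.588 CPM in DMSO and 20.7 ± 1.23 with GSK343, but 24.2 ± 1.44 with XL413 and 24.6 ± 0.634 with both. Its rise was 0.33 ± 0.060 with XL413, which missed the threshold when any 1 of the 6 libraries compared was left out (up to 0.158), and 0.35 ± 0.060 with both. ME1, malic enzyme, rose with both by 0.27 ± 0.050, and ME3 by 0.35 ± 0.10. ME3 missed the threshold (up to 0.105) when any DMSO library, or GSK343+XL413 replicate 1 or 3, was left out. It also missed it in the fit of only these groups (0.0560). With replicate 2 of the combination left out all 4 calls of the list were kept. ME2 and RPIA were called as well, which made 5 higher and 1 lower.

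A list of other NRF2 targets together with detoxification and export genes had 26 tested genes. Of these, 0 were called with XL413, 2 higher with GSK343, and 6 higher and 1 lower with both. With both this was 26.9% of the list against 13.9% of all genes. The list medians were 0.029, 0.053 and 0.10 with XL413, GSK343 and both. AKR1C2, an aldo-keto reductase, was at 7.49 ± 0.420 CPM in DMSO, 9.96 ± 0.139 with GSK343 and 10.4 ± 0.462 with both. It rose by 0.41 ± 0.071 and 0.47 ± 0.070 (edgeR adjusted p = 0.0139 and 0.00160). ABCG2, a drug efflux pump, rose by 0.34 ± 0.065 with GSK343 and 0.39 ± 0.065 with both (adjusted p = 0.0248 and 0.00305). For GSK343 alone, AKR1C2 missed the threshold (up to 0.0853) when replicate 2 or 3 of either group was left out. ABCG2 missed it (up to 0.116) when any DMSO library, or replicate 1 or 3 of GSK343, was left out, and with the replicate number in the model (0.0536). PIR, pirin, rose with both by 0.32 ± 0.052, while SLC6A9, a glycine transporter, fell by 0.75 ± 0.077 from 15.1 ± 1.10 to 8.95 ± 0.548 CPM (adjusted p = 0.00273 and 0.000178). AKR1C2 has close paralogs. With GSK343+XL413 replicate 2 left out the list had 1, 6 and 7 calls of 27 tested genes, where 4.85, 6.15 and 15% of all genes were called.

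Of 31 genes of iron and haem handling, which decide what ferritin receives, 0 were called with XL413, 0 with GSK343, and 1 higher and 1 lower with both, or 6.45% against 13.9% of all genes. UROD, an enzyme of haem synthesis, rose by 0.21 ± 0.055, but missed the threshold when any DMSO library was left out (edgeR adjusted p up to 0.0930). It also missed it in the fit of only these groups (0.0812). PCBP1, an RNA-binding protein that also hands iron to ferritin, fell by 0.14 ± 0.043. PCBP1 missed the threshold (up to 0.115) for 10 of the 12 libraries left out singly, all except GSK343 replicate 3 and GSK343+XL413 replicate 2. Upper quartile scaling and the fit of only these groups did not call it either. TFRC, the transferrin receptor that brings iron in and whose mRNA carries iron-responsive elements too, was at 374 ± 6.17 CPM in DMSO, 331 ± 7.39 with XL413, 377 ± 20.9 with GSK343 and 330 ± 35.4 with both. Its log2 differences were −0.17 with XL413 (adjusted p = 0.257) and −0.18 with both (adjusted p = 0.0834). With GSK343+XL413 replicate 2 left out the XL413 difference passed (−0.17, adjusted p = 0.0165) and that with both was −0.086 (adjusted p = 0.162).

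The iron regulatory proteins that bind the ferritin hairpin printed above are encoded by ACO1 and IREB2. ACO1 was at 70.4, 73.5, 74.4 and 74.7 CPM in DMSO, XL413, GSK343 and both, and IREB2 at 122, 121, 121 and 115 CPM, with no call. In the fit that leaves out GSK343+XL413 replicate 2, ACO1 rose by 0.17 with both (edgeR adjusted p = 0.00822). NCOA4, the receptor that delivers ferritin to lysosomes, was at 133, 133, 137 and 138 CPM, with no call. SLC40A1, the iron exporter ferroportin, was at 0.839, 0.592, 0.770 and 0.720 CPM, too low to compare. That fit called 5 of the 31 genes with XL413 (TFRC, UROD, PCBP1, PCBP2 and STEAP3; 4.85% of all genes) and 4 with both (UROD, PCBP1, PCBP2 and ACO1; 15% of all genes).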

How the data were processed

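Poly-A RNA of A375 cells was sequenced in 12 libraries, 3 in each of 4 groups, and groups were read from the labels. The authors deposited RSEM expected counts per gene, and the submitters' processing notes name the tools RSEM 1.2.15 and Bowtie2 2.1.0 with the build hg38. No annotation, strand setting or trimming step is given in the sources used here.

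These estimates, rounded to integers, went into edgeR 4.0.16 under R 4.3.3. The filter filterByExpr (minimum count 10, minimum total 15) kept 15443 genes and removed 11032. A single quasi-likelihood model covered the 12 libraries, with TMM scaling, 4 group coefficients and 8 residual degrees of freedom, two-sided tests and Benjamini-Hochberg adjustment over all tested genes. Genes with an adjusted p under 0.05 count as called. Standard errors (SE) were derived from the log2 fold change and its F statistic. Levels are CPM on effective library sizes. The p-values measure the spread between these libraries, which the labels call biological replicates without saying how they were grown.  The script was tested on simulated data.

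Positions, lengths and GC content came from GENCODE 29, where 23872 genes matched by name, 752 by an older symbol and 1851 did not. Alternatives were upper quartile and RLE scaling, a stricter filter (3 libraries with at least 5 CPM) or none, limma-voom (limma 3.58.1), DESeq2 1.42.0, only the groups compared, the replicate number as a block, offsets for GC content and length (mgcv 1.9.3), and leaving out each library. The block together with the offsets was added after seeing the data.

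The members, the 6 lists and the alternatives were chosen with earlier results of these data known, so counts in the lists are descriptions. Named genes are all members, list genes called against DMSO (up to 4 per list and comparison, by smallest p), 5 regulators and 5 iron genes whatever their result, and the 3 genes nearest in pattern to each called member. Genes named as called only without GSK343+XL413 replicate 2 were chosen after their values were seen, as were the list genes that change with that library. No table of protein sequences was used here.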

Additional observations from a re-analysis of the deposited data

How the results depend on the processing

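Each group held 3 libraries, and GSK343+XL413 replicate 2 stood apart from its group. The effect of depth on the calls was not tested. Over the 8 genes and 6 comparisons, 980 re-estimates kept their direction and side of the threshold, 13 newly passed it, 5 lost it and 50 changed sign, the last all in differences that were not called.

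Members called in GSK343 against DMSO went from 0 to 1 (at least 5 CPM, DESeq2, only the groups compared) and to 2 with GC and length offsets, or 1 when the replicate block was added. Leaving out single libraries gave 0 to 1. In GSK343+XL413 against DMSO the count of 2 became 1 with only the groups compared, and 0 to 2 when single libraries were left out. Against XL413 the combination had 0, but 2 with the offsets and 1 with the replicate block added. Against GSK343 it had 0, but 1 and 1 in those fits, and 0 to 1 when single libraries were left out. The replicate block alone gave 0, 0, 2, 0, 0 and 0 calls in the 6 comparisons. With GSK343 against DMSO, the offsets called 2.67% of genes of 1.5 to 3 kb higher and 4.41% lower. Without offsets these shares were 1.25 and 1.15%. DESeq2 called 2.21% of all genes there, where the main fit called 1.17%. For the stricter filter, only the groups compared, the block and the offsets, shares of all genes called are not given here. The member counts of those fits are thus not read against a background. Of 18 same-numbered pairs of libraries 6 had a correlation over 0.1 (range −0.295 to 0.477), and 4 of 12 libraries lay closest to their own number, so the numbers were not taken as pairs.

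Sign changes were small. With the offsets FTL with XL413 was −0.0191 (also −0.0191 with the block). With upper quartile scaling TXNRD1 was 0.0030 (XL413), 0.0045 (both against DMSO) and 0.0015 (both against XL413), NQO1 with GSK343 0.022, SRXN1 with GSK343 0.024 and SRXN1 for both against XL413 0.011. With at least 5 CPM, TXNRD1 with XL413 was 0.0010, NQO1 with GSK343 0.013 and SRXN1 0.015. With no filter NQO1 and SRXN1 with GSK343 were 0.00078 and 0.0027, with only the groups compared 0.0059 and 0.0077, and SRXN1 with offsets 0.0068 (0.0070 with the block). Leaving out single libraries, TXNRD1 ranged from −0.0301 to 0.0153 (XL413), −0.0726 to 0.0369 (both), −0.0699 to 0.0387 and −0.0333 to 0.077 (both against XL413 and GSK343) and −0.0307 to 0.0788 (interaction). SRXN1 ranged from −0.0041 to 0.0067 (GSK343), −0.0536 to 0.015 (both against XL413) and −0.0568 to 0.0108 (interaction), and NQO1 with GSK343 from −0.0352 to 0.0401. GCLM ranged from −0.0173 to 0.0601 and −0.0085 to 0.0671 (both against XL413 and GSK343), and GCLC from −0.0040 to 0.0471 (both against GSK343).

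Without GSK343+XL413 replicate 2, calls over all genes rose from 66, 180 and 2152 (XL413, GSK343, both) to 756, 958 and 2335. Calls of the regulators went from 0, 1 and 2 to 1, 2 and 4. Glutathione calls with XL413 and GSK343 went from 0 and 0 to 3 and 4, and thioredoxin calls from 0 and 0 to 1 and 1. Calls in the list of other targets, detoxification and export went from 0 and 2 to 1 and 6. Iron genes with XL413 and both went from 0 and 2 to 5 and 4. The cause was not tested.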

Other observations

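The genes nearest to the ferritins in pattern were taken as those with the smallest root mean square difference in log2 CPM, relative to the DMSO mean, over the 12 libraries and among 10085 genes. For FTH1 they were ID1 (0.0818), an inhibitor of basic helix-loop-helix factors, BRI3 (0.0876) and FAM173A (0.0984), where the median gene stood at 0.321. ID1 and BRI3 rose in the combination by 0.51 and 0.42 on the log2 scale (edgeR adjusted p = 0.0156 and 0.00813), and FAM173A was at 0.41 (adjusted p = 0.0760). For FTL they were SPAG7 (0.0379), CRIPT (0.0388) and NDUFB5 (0.0423), a subunit of mitochondrial complex I, where the median gene stood at 0.197. These 3 rose by 0.23, 0.27 and 0.24 (adjusted p = 0.0274, 0.0200 and 0.0465). Genes near FTH1 and FTL were chosen on the same 12 libraries. Their rises in the combination and the adjusted p values largely follow from that choice and are no separate evidence.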
